A study of Rattus norvegicus with 12 samples.

Results

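Troponins and sarcomeric actins form the regulatory and structural core of the thin filament of striated muscle. The 10 genes described were taken by name from a table of 17301 genes, and all of them were listed, with 25 of 18752 transcript rows: troponin T (Tnnt1, Tnnt2, and Tnnt3), troponin I (Tnni1, Tnni2, and Tnni3), troponin C (Tnnc1 and Tnnc2), and the sarcomeric actins (Actc1 and Acta1). They were measured by RNA sequencing in adult rat ventricular myocytes (ARVMs) cultured from hearts of adult male Sprague Dawley rats. At 50 m.o.i., the cells received Ad-h-NR4A2, an adenovirus carrying the human cDNA of the nuclear receptor NR4A2 behind the constitutive CMV promoter, or the control virus Ad-GFP, and RNA was taken 48 h later. Each group had 6 samples numbered 24 to 29, from 6 experiments with cells of different rats, and untransduced cells were not analysed here. All cells were kept in culture with butanedione monoxime, an inhibitor of myosin contraction. As a check of the labels, FPKM (fragments scaled to the length of the transcript and to the total of the sample) of rat Nr4a2 was 0.626 to 1.40 in Ad-GFP and 445 to 592 in Ad-h-NR4A2 samples; fragments of the human cDNA count there if similar enough to be aligned to the rat gene.

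In the thin filament, troponin T ties the troponin complex to tropomyosin, troponin I holds the filament in its inhibited state, and troponin C binds the calcium that releases it. Each subunit has isoforms of separate genes. The adult ventricle uses Tnnt2, Tnni3, and Tnnc1 with cardiac actin Actc1, whereas Tnni1 and the skeletal actin Acta1 are known from the fetal heart and Tnnt1, Tnnt3, Tnni2, and Tnnc2 from skeletal muscle.

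The 3 adult cardiac troponin transcripts were lower in Ad-h-NR4A2 samples in each of the 6 same-numbered pairs, as was the case for 29.1% of all genes tested. In mean FPKM, Tnnt2 and Tnnc1 fell by 16.7% and 17.4%. Apart from Acta1, isoforms of the fetal heart and of skeletal muscle had at most 2.24 FPKM in any sample or were listed at 0. Groups were compared on log2(FPKM + 0.1) with limma across 10950 genes, and a gene was called at a Benjamini-Hochberg adjusted p below 0.05. Of the 10 genes, 7 could be tested, and 2 of these 7 were called, both lower. Of all genes tested, 40.9% were called, made up of 21.7% that were lower and 19.3% that were higher. The median log2 fold change was -0.22 over the 7 genes and -0.02 over all genes tested. None of the 7 passed a ratio of mean FPKM of 1.5 in addition, against 15.2% of all genes tested.

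Tnnt2, cardiac troponin T (NM_012676, locus chr13:57716337-57729180 of Rn5), had a lowest, median, and highest FPKM of 6325, 7293, and 7673 in Ad-GFP samples. In Ad-h-NR4A2 samples these were 5374, 6206, and 6296. The groups did not overlap, as was the case for 21.5% of all genes tested, and sample 24 was lowest in both. The log2 fold change was -0.26 (SE 0.06, 95% confidence interval -0.40 to -0.13, adjusted p = 0.00477 from limma). The two-sided exact permutation test gave p = 0.00216, the smallest that 6 samples against 6 allow.

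Tnnc1, the troponin C of the heart and of slow muscle (NM_001034105, locus chr16:7220777-7223730), had 5138, 5920, and 6135 FPKM as lowest, median, and highest value with Ad-GFP. With Ad-h-NR4A2 it had 4315, 4731, and 5304. The groups overlapped only in that the highest Ad-h-NR4A2 sample, 29, exceeded the lowest Ad-GFP sample, 24. The log2 fold change was -0.28 (SE 0.07, 95% confidence interval -0.42 to -0.13, limma adjusted p = 0.0048; exact permutation p = 0.00433). With genes of any level admitted to the fit, neither call was kept (limma adjusted p = 0.132 for Tnnt2 and 0.0661 for Tnnc1).

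Tnni3, cardiac troponin I (NM_017144, locus chr1:75665119-75668803), ranged from 7027 to 10846 FPKM with a median of 9236 in Ad-GFP samples. It ranged from 6541 to 9484 with a median of 7596 in Ad-h-NR4A2 samples. The groups overlapped widely, and sample 28 was lowest and sample 25 highest in both. The log2 fold change was -0.22 (SE 0.11, 95% confidence interval -0.45 to 0.01) and missed the threshold (limma adjusted p = 0.119; exact permutation p = 0.0909). It passed with sample numbers entered as a replicate block (limma adjusted p = 0.00241) and without Ad-GFP sample 28 (log2 fold change -0.30, limma adjusted p = 0.0252), while with quantile normalization the log2 fold change was -0.077 (limma adjusted p = 0.443).

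In bulk RNA, fewer cardiomyocytes and less RNA of a gene per cardiomyocyte cannot be told apart. Of 10 other cardiomyocyte markers 9 were tested, Ttn being not analysed here; 6 fell (Myh6, Myh7, Myl2, Ryr2, Pln, and Mybpc3) and Actn2 rose, while Myl3 and Mb did not pass. These 77.8% called compare with 40.9% of all genes tested, and the median log2 fold change of -0.56 with -0.02. The call of Myl2 was lost in 5 of 12 fits with a sample left out. It was also lost without a filter on low values (log2 fold change -0.20, limma adjusted p = 0.595). The summed FPKM of the 9 markers tested was 38339 to 45202 in Ad-GFP and 33427 to 40701 in Ad-h-NR4A2 samples, with Mb, which encodes the oxygen store myoglobin, the most abundant at a mean of 19526. Its part in the troponin values was not tested.

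Actc1, cardiac α-actin (NM_019183, locus chr3:112080853-112086389), had 2073, 2247, and 2752 FPKM as lowest, median, and highest value in Ad-GFP samples. The Ad-h-NR4A2 samples had 1763, 2226, and 2603. Values overlapped, were lowest in sample 27 of either group, and were lower with Ad-h-NR4A2 in 5 of 6 pairs, sample 28 being the exception. The log2 fold change was -0.09 (SE 0.11, 95% confidence interval -0.33 to 0.14, limma adjusted p = 0.531; exact permutation p = 0.45).

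Acta1, skeletal α-actin (NM_019212, locus chr19:67389899-67392911), was the only gene of a fetal or skeletal isoform at a high level. Its lowest, median, and highest FPKM were 379, 587, and 784 with Ad-GFP, against 340.3, 546, and 710.0 with Ad-h-NR4A2. Samples differed by number rather than by virus, with 24, 25, and 28 at 633 to 784 and 26, 27, and 29 at 340.3 to 503 over both groups. The log2 fold change was -0.10 (SE 0.21, 95% confidence interval -0.56 to 0.36, limma adjusted p = 0.738; exact permutation p = 0.675). Pairing by a replicate block brought the SE to 0.04 and the limma adjusted p to 0.0449, so that the difference passed. Coding sequences of the α-actins are closely alike, and fragments that fit several of them may have been divided among them by the authors' software.

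**Figure D1:**
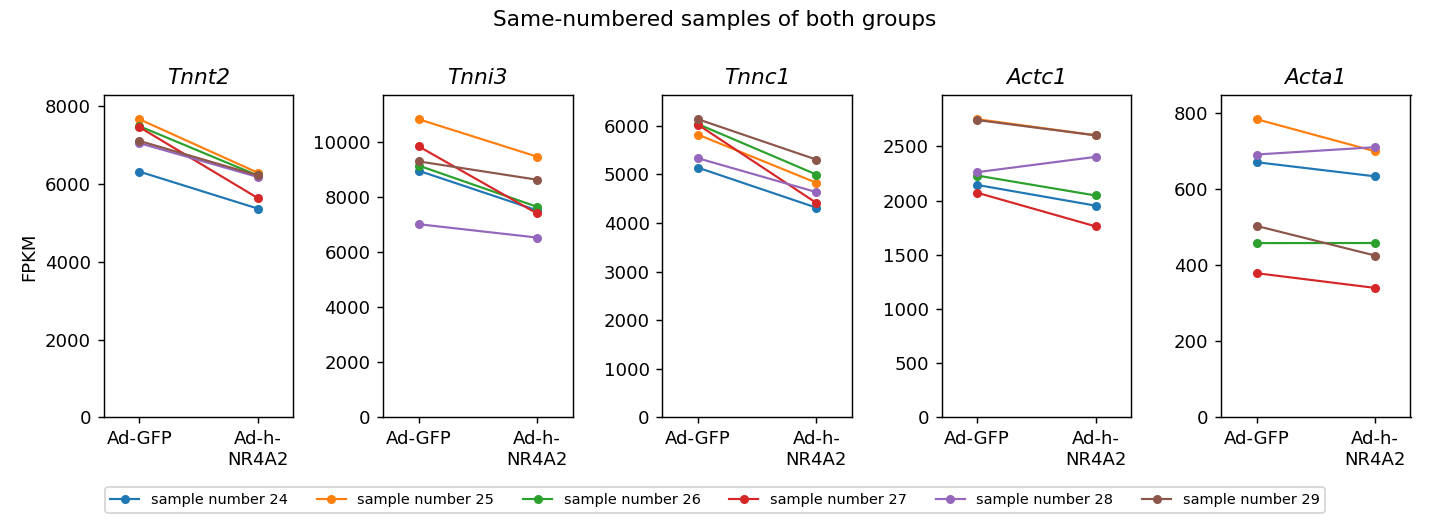
FPKM (y axes, starting at 0) of the 5 abundant genes in Ad-GFP and Ad-h-NR4A2 samples, with a line joining samples of the same number. Lines of Tnnt2, Tnni3, and Tnnc1 all slope down, and those of Acta1 are spread from 340.3 to 784 FPKM and slope down in 4 of 6 pairs.

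The spread shared by same-numbered samples was seen in the log2 values of the abundant genes. For Acta1 the SD was 0.40 among Ad-GFP and 0.44 among Ad-h-NR4A2 samples, while the SD of the 6 differences within pairs was 0.11. The correlation of same-numbered samples was r = 0.971 for Acta1, 0.905 for Actc1, 0.838 for Tnni3, 0.672 for Tnnt2, and 0.663 for Tnnc1 (n = 6 pairs, given as a description). Of the low genes, Tnni1 had r = 0.968, Tnnt1 (NM_134388) 0.128, and Tnnc2 -0.782. The last rests on 0 to 6 fragments per sample, and that of NM_134388 on how the software divided fragments among transcripts. These 2 values therefore cannot show whether same-numbered samples share a spread in Tnnt1 or Tnnc2. With the replicate block, 4 of the 7 genes tested were called, all lower (Tnnt2, Tnnc1, Tnni3, and Acta1). Of all genes tested that fit called 59.4%, 32.3% lower and 27.1% higher, or 16.7% with a ratio of 1.5 in addition. Actc1 had a limma adjusted p of 0.0664 in that fit.

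Tnni1, slow skeletal troponin I and the main troponin I of the fetal heart (NM_017184, locus chr13:57673399-57684215), had 1.17, 1.78, and 2.04 FPKM as lowest, median, and highest value with Ad-GFP. With Ad-h-NR4A2 these were 0.822, 1.99, and 2.24. Sample 28 was lowest in both groups and the rest lay close together. The log2 fold change was 0.03 (SE 0.21, 95% confidence interval -0.42 to 0.49, limma adjusted p = 0.921). Values were higher with Ad-h-NR4A2 in 5 of 6 pairs, sample 28 being the exception. Without Ad-h-NR4A2 sample 28 the log2 fold change was 0.23 (limma adjusted p = 0.189). Low FPKM come in steps, each worth 1 fragment, and by these steps 20 to 34 fragments lay behind Tnni1 in an Ad-GFP sample and 14 to 32 in an Ad-h-NR4A2 sample. The totals of 162 and 170 have exact Poisson 95% intervals of 138 to 189 and 145 to 198, which cover counting error only.

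Tnnt1, slow skeletal troponin T (locus chr1:75652123-75662339), is listed with 4 transcripts of 908 to 944 nucleotides. The software shared the fragments among them unevenly, and the most abundant, NM_134388, went from 4.81e-12 to 0.898 FPKM within Ad-GFP samples alone. With the 4 summed, FPKM was 0.371, 0.788, and 1.51 (lowest, median, and highest) with Ad-GFP, against 0.159, 0.507, and 0.887 with Ad-h-NR4A2. Summed values were lower with Ad-h-NR4A2 in 6 of 6 pairs but overlapped (log2 fold change -0.65, SE 0.33, limma adjusted p = 0.138; exact permutation p = 0.119). For NM_134388 alone the log2 fold change was -0.52 (SE 0.60, limma adjusted p = 0.531).

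Tnnc2, troponin C of fast muscle (NM_001037351, locus chr3:167429345-167430429), was listed at 0 in Ad-GFP samples 24 and 26. The others of that group had 0.111 to 0.460 FPKM, and Ad-h-NR4A2 samples had 0.121 to 0.782. These are 8 fragments over all Ad-GFP samples (exact Poisson 95% interval 3.45 to 15.8) and 13 over all Ad-h-NR4A2 samples (6.92 to 22.2), so that no difference was detectable at this depth (exact permutation p = 0.251). Tnni2 (NM_017185, locus chr1:222504477-222507019) and Tnnt3 (locus chr1:222561418-222578418) encode the troponin I and T of fast muscle. Tnni2 and all 13 transcripts of Tnnt3 were listed at 0 in all 12 samples. For Tnni2, 3 fragments would be 0.206 to 0.311 FPKM in an Ad-GFP sample and 0.212 to 0.269 in an Ad-h-NR4A2 sample. A count of 0 has an exact Poisson 95% interval of 0 to 3.69 fragments. An entry of 0 may be a failed estimate, which was not tested. Col1a2, a collagen gene, was also listed at 0 throughout.

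**Figure D2:**
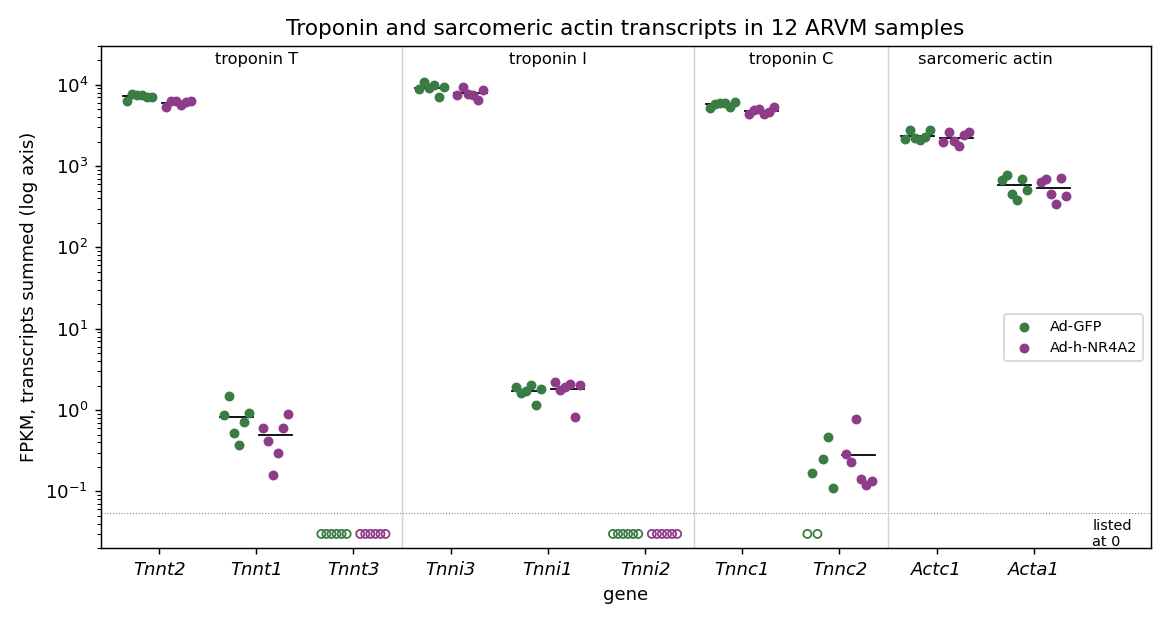
FPKM (log y axis) of the 10 genes, transcripts of a gene summed, in each Ad-GFP and Ad-h-NR4A2 sample; lines mark group means where no sample was listed at 0, and open circles mark samples listed at 0. Tnnt2, Tnni3, Tnnc1, and the actins have at least 340.3 FPKM and all others at most 2.24.

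Isoform shares were compared within each sample as a description. Tnni3 made up at least 99.97% of troponin I FPKM in every sample, and Tnni1 averaged 0.0187 ± 0.00248% (SD, n = 6) with Ad-GFP, against 0.0230 ± 0.00640% with Ad-h-NR4A2. Acta1 made up 19.6 ± 3.98% of sarcomeric actin FPKM with Ad-GFP, against 19.5 ± 4.02% with Ad-h-NR4A2, and its share ran from 14.0% in Ad-h-NR4A2 sample 29 to 24.5% in Ad-h-NR4A2 sample 24. Troponin I was thus nearly all Tnni3 in each sample, while the actin mixture varied more between sample numbers than between viruses.

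The ratio of Tnnt2 to Tnnc1 FPKM was 1.25 ± 0.0613 (SD, n = 6) with Ad-GFP, against 1.26 ± 0.0560 with Ad-h-NR4A2. The ratio of Actc1 to Tnnt2 was 0.330 ± 0.0397 and 0.371 ± 0.0438, higher with Ad-h-NR4A2 in 6 of 6 pairs. Of all transcript rows of a sample, Tnni3 ranked 3 to 7 by FPKM, Tnnt2 6 to 11, Tnnc1 9 to 15, Actc1 27 to 52, and Acta1 166 to 345. The 10 genes together held 3.48 ± 0.237% of summed FPKM with Ad-GFP, against 2.93 ± 0.190% with Ad-h-NR4A2.

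Troponin genes lie in pairs on the rat chromosomes, a T gene beside an I gene. On chromosome 1 of Rn5, the loci of Tnnt1 and Tnni3 are 2779 bases apart, although their mean FPKM over the 12 samples was 0.653 (transcripts summed) and 8538. On chromosome 13, Tnni1 at 1.77 and Tnnt2 at 6591 FPKM are 32121 bases apart. Tnni2 and Tnnt3, both listed at 0, are 54398 bases apart. On chromosomes 1 and 13, one of the abundant troponin genes thus lies beside one that is barely detected.

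Partners of the thin filament, chosen for its assembly, capping, and turnover, moved in both directions. The list is broad and also holds Unc45b, a chaperone of the myosin head, and Smyd1, which takes part in sarcomere assembly. Of 28 in the list, 24 were tested, of which 9 fell, 4 rose, and 11 did not pass (54.2% called, against 40.9% of all genes tested), with a median log2 fold change of -0.14 against -0.02 over all genes tested. Those that fell were Tmod1, which caps the pointed end of actin; Capzb, a subunit of the barbed-end cap; the actin-severing and depolymerizing factors Cfl2 and Cap2; the formin Fhod1; Nexn, Nrap, and Xirp2, which bind actin; and Unc45b. Those that rose were the tropomyosin gene Tpm3; Nebl, whose product nebulette ties actin to the Z disk; Capza2, one of the genes of the other subunit of that cap; and Smyd1. Capza1, which encodes the same subunit, did not pass (log2 fold change 0.028, limma adjusted p = 0.652). Capzb (log2 fold change -0.085) lost its call in 7 of 12 fits with a sample left out. It also lost the call without trend (limma adjusted p = 0.0866). Capza2 lost its call with quantile normalization (log2 fold change 0.099, limma adjusted p = 0.0817) and without Ad-GFP sample 24. Lmod1 was listed at 0 in 1 sample, and Lmod3, Neb, and Xirp1 were not analysed here.

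Smyd1, a methyltransferase of striated muscle that takes part in sarcomere assembly, rose most, from 85.1, 102, and 119 FPKM (lowest, median, and highest) to 287, 306, and 347. Its log2 fold change was 1.61 (SE 0.07, limma adjusted p = 2.87e-09). Unc45b, a chaperone of the myosin head, went the other way, from 55.2, 61.8, and 75.3 to 27.2, 30.8, and 32.5 FPKM (log2 fold change -1.08, SE 0.08, limma adjusted p = 1.85e-07). Nexn, which encodes the actin-binding nexilin, had 150.4 to 199.6 FPKM with Ad-GFP, against 84.5 to 109.8 with Ad-h-NR4A2 (log2 fold change -0.87, SE 0.08, limma adjusted p = 1.13e-06). For these 3 genes no sample of a group reached the other, as was the case for 21.5% of all genes tested. Cap2, Cfl2, Capzb, Fhod1, and Xirp2 of the list did not overlap either.

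Tpm1, the main tropomyosin and the most abundant partner, had 5173 to 6677 FPKM with Ad-GFP, against 4828 to 6669 with Ad-h-NR4A2, a log2 fold change of -0.01 (limma adjusted p = 0.947). The ratio of Tnnt2 to Tpm1 was 1.15 to 1.31 with Ad-GFP, against 0.944 to 1.12 with Ad-h-NR4A2. The groups did not overlap, which was already so for Tnnt2 alone, and the ratio is not a separate result. Tpm2, Tmod3, and Fhod3 did not pass in the unpaired comparison but did with the replicate block (limma adjusted p = 1.52e-05, 0.024, and 0.00175). Their log2 fold changes were -1.07, -0.20, and -0.27, and Tpm2 was lower in 6 of 6 pairs.

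A minor transcript of Tpm1, chosen after its values were seen, rose while the main one did not. NM_001034075 had 33.8, 39.2, and 40.9 FPKM as lowest, median, and highest value with Ad-GFP, against 153.5, 186, and 222 with Ad-h-NR4A2. The groups did not overlap, as was the case for 21.5% of all genes tested. With every transcript tested by itself, which calls 39.1% of 11667 transcripts, its log2 fold change was 2.27 (SE 0.09, limma adjusted p = 3.32e-09). Its share of Tpm1 FPKM averaged 0.651% with Ad-GFP, against 3.11% with Ad-h-NR4A2. Transcripts of 1 gene share most of their sequence, and the division among them is an estimate of the software.

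**Figure D3:**
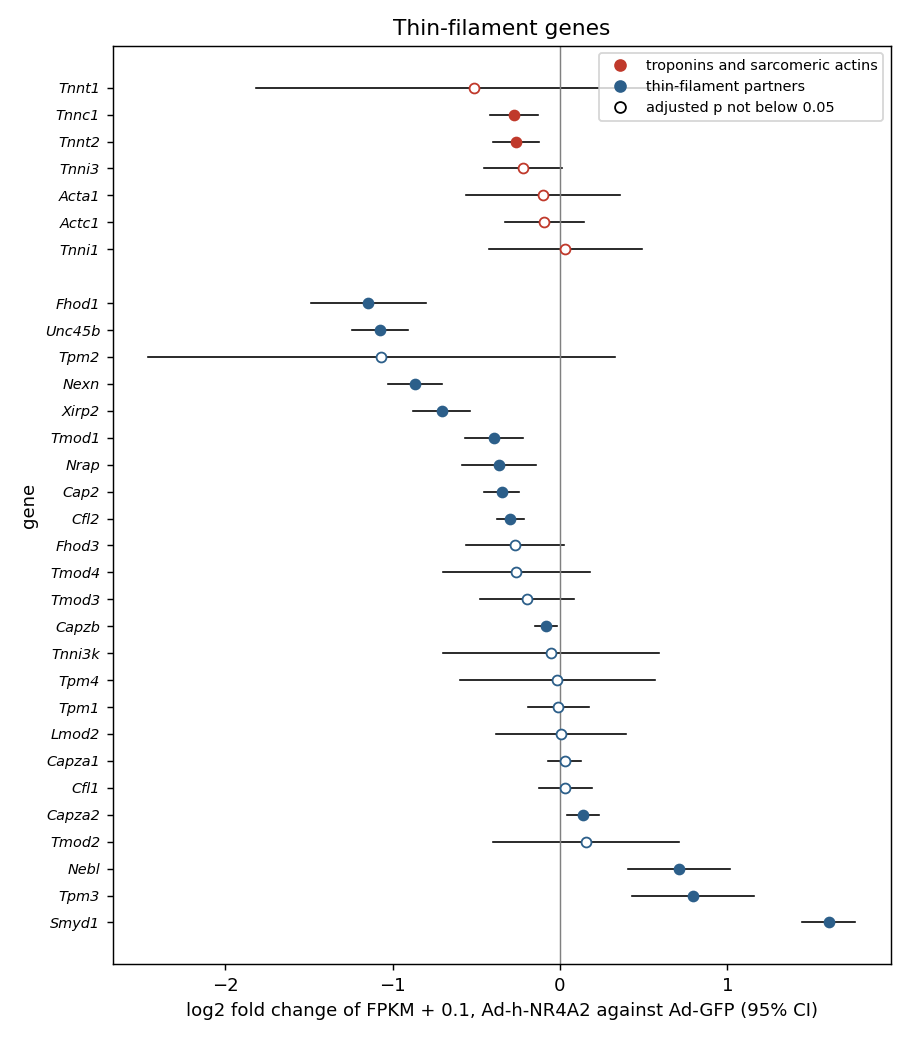
Log2 fold changes of FPKM + 0.1 (x axis) with 95% confidence intervals, Ad-h-NR4A2 against Ad-GFP, for the 7 troponin and actin genes and the 24 partners tested; filled points passed an adjusted p below 0.05. Tnnt2 (-0.26) and Tnnc1 (-0.28) lie nearer to 0 than Smyd1 (1.61), Unc45b (-1.08), and Nexn (-0.87).

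The non-sarcomeric actins, of cytoplasm and smooth muscle, were low beside Actc1 and Acta1. Actb had a mean of 66.1 FPKM, and of Actb, Actg1, and Acta2 0 of 3 were called with limma, or at an unadjusted p below 0.05. With the replicate block Actb was lower (limma adjusted p = 0.0196) and Actg1 higher (limma adjusted p = 0.0357). Actg2 was listed at 0 in 1 sample.

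Of a list of 17 transcription factors of muscle genes, 10 were tested, with a median log2 fold change of -0.38 against -0.02 over all genes tested. Of these, 6 fell (Gata4, Tead1, Tbx5, Myocd, Mef2a, and Mef2d) and 4 did not pass (Srf, Nkx2-5, Six4, and Prox1), where 21.7% of all genes tested were called lower; Nkx2-5 was the most abundant, with a mean of 63.0 FPKM. Gata4 went from 32.2, 39.2, and 40.9 FPKM (lowest, median, and highest) to 18.1, 23.2, and 26.1 (log2 fold change -0.76, SE 0.09, limma adjusted p = 1.23e-05). Tead1 went from 47.2, 51.9, and 54.0 to 27.4, 31.0, and 35.8 (log2 fold change -0.70, SE 0.07, limma adjusted p = 2.87e-06). Neither had overlapping groups, as was the case for 21.5% of all genes tested and also for Myocd, Mef2a, and Tbx5 of the list. Srf, which acts on actin promoters, had 20.2 to 24.6 FPKM with Ad-GFP, against 19.5 to 22.4 with Ad-h-NR4A2 (log2 fold change -0.06, SE 0.05, limma adjusted p = 0.442).

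Because several of these factors changed, the 250 bases before the start of each gene were searched on both strands for letters they are known to bind. The sequences are RefSeq promoters of the GRCr8 assembly, found for 8 of the 10 genes (9 starts), and Tnnc1 and Tnnt3 had none. The motifs were AGATAA for factors such as Gata4, CATTCC for factors such as Tead1, AAAGGTCA for the NR4A receptors, and TATAAA for the TATA box, with the CArG box of Srf and the MEF2 box. Both of these boxes can hold TATAAA within them, but no matches found here overlapped. Of 33469 promoters of that length they were held by 10.3%, 12.1%, 1.24%, 12.9%, 1.5%, and 0.523%. The letters AAAGGTCA and the MEF2 box were not in any of the 9 windows. The windows of Actc1, Tnni1, Tnnc2, and the second start of Tnnt2 held none of the motifs. The promoters of Tnnt2 (first start), Tnni3, and Acta1 are shown, since these are abundant genes with a match, 5′ to 3′ on the gene's strand with matches in capitals. A match is a description of the letters, and binding was not tested.
Tnnt2, chr13:49818873-49819122, plus strand: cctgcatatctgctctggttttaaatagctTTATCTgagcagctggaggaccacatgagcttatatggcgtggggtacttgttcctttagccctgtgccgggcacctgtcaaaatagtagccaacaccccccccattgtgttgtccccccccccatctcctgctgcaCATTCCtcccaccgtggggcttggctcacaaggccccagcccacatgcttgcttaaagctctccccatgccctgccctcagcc
Tnni3, chr1:78342321-78342570, plus strand: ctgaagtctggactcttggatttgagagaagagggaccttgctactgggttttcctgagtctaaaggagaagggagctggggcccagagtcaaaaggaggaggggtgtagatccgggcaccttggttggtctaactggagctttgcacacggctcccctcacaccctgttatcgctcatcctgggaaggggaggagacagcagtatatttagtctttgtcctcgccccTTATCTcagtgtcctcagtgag
Acta1, chr19:68784195-68784444, minus strand: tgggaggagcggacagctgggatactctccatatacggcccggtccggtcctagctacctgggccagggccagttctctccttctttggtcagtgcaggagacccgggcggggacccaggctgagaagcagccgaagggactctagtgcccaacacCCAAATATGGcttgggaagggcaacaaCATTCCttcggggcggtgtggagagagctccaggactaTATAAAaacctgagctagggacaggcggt

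In Tnnt2 the capitals are the motif of Gata4 on the other strand, starting 220 bases before the start, and CATTCC 83 bases before it. Tnni3 has the motif of Gata4 on the other strand 22 bases before the start. Acta1 has a CArG box at 94 bases, CATTCC at 67, and TATAAA at 29 bases before the start. TATAAA was also found for Tnnt1, 30 bases before the start, and on the other strand for Tnni2.

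Genes whose pattern was most like these were sought among 8972 other genes with a mean of at least 1 FPKM, by Pearson's r over the 12 samples, which share 2 viruses and 6 experiments, as a description. For Tnnt2 they were Rhobtb1 (r = 0.955), Cryl1, and Chmp3; for Tnnc1, Emilin1 (r = 0.946), Rac2, and Paqr8; and for Tnni3, Sdha (r = 0.936), Coq6, and Atp5c1. For Actc1 they were Sh3bgr (r = 0.856), Dctn3, and Rnaseh2b, for Acta1 RGD1305178 (r = 0.871), Tmem167b, and Fgfbp3, and for Tnni1 Rbmx (r = 0.925), Tfpi, and Zfp445. With group means removed, the nearest were Bdh2, Mb, and Me3 for Tnnt2 (r = 0.926 for Bdh2) and Chpt1, Ndufa8, and Ndufs1 for Tnni3 (r = 0.951 for Chpt1). Of the 5 abundant genes, deviations of Tnnt2 and Tnnc1 were the most alike (r = 0.791), and those of Acta1 and Tnnc1 were not (r = -0.39).

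Markers of other cells were examined by lists, to be read against the 40.9% of all genes tested that were called. Of 9 fibroblast markers 8 were tested and Col3a1 fell (log2 fold change -0.94, limma adjusted p = 0.0239); their summed FPKM was 9.29 to 30.8 with Ad-GFP, against 5.88 to 27.4 with Ad-h-NR4A2, with Vim the most abundant and Col1a2 listed at 0. The call of Col3a1 was lost in 3 of 12 fits with a sample left out. It was also lost without a filter on low values (log2 fold change -0.94, limma adjusted p = 0.0651). Of 5 endothelial markers 0 were called with limma or at an unadjusted p below 0.05, and their sum was 5.47 to 17.1 and 4.39 to 16.2 FPKM, with Kdr the most abundant. Of the smooth muscle markers 5 of 6 were tested; Myh11 and Des fell, and their sum of 2261 to 2635 with Ad-GFP, against 1905 to 2159, was nearly all Des, which cardiomyocytes also express, at a mean of 2214 FPKM. Of 4 atrial markers Myl4 fell, and Nppa was the most abundant; their sum was 83.1 to 410.4 and 87.1 to 412 FPKM.

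Of 6 macrophage and leukocyte markers 4 were tested; Csf1r rose from 5.48 to 17.1 FPKM in Ad-GFP samples to 36.8 to 43.4 (log2 fold change 2.06, SE 0.19, limma adjusted p = 2.15e-06), and Cd14 rose as well (log2 fold change 1.99, limma adjusted p = 0.000493). Cd68 (log2 fold change 0.05) and Lyz2 (-0.66, lower in 5 of 6 pairs) did not pass (limma adjusted p = 0.905 and 0.475), and Ptprc and Itgam were each listed at 0 in 1 sample and had at most 0.0489 and 0.119 FPKM. The sum of the list was 6.96 to 18.0 and 39.1 to 50.2 FPKM, with Csf1r the most abundant. Of 17 skeletal muscle markers 16 were listed and 4 tested, with 0 called by limma and 1 at an unadjusted p below 0.05; Casq1 was the most abundant, at a mean of 17.6 FPKM, and Pax7 was listed at 0, with a sum of 15.8 to 34.3 and 16.3 to 33.2 FPKM. Myf6 and Myh8 of the skeletal muscle list were not tested here. Both were higher with Ad-h-NR4A2 in 6 of 6 pairs, as described under Other observations. Their groups did not overlap, which was the case for 21.5% of all genes tested. With the replicate block, Sln, Col1a1, Pdgfra, Kdr, and Mybpc2 of these lists passed as well, each lower, and Nppa, higher (limma adjusted p of 0.00298 to 0.0231), in a fit that called 59.4% of all genes tested. The part of other cells in the troponin values was not tested.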

How the data were processed

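RNA of 12 ARVM samples was sequenced by the authors from stranded mRNA libraries, aligned to Rn5 with STAR, and quantified with Cufflinks. The deposited FPKM values are as the authors calculated them for RefSeq transcripts. Groups and the numbers 24 to 29 come from the sample labels. The most abundant transcript represented a gene, and a gene was tested if it exceeded 0 in all 12 samples, on log2(FPKM + 0.1) with limma 3.58.1 (eBayes with trend, R 4.3.3), without a block, two-sided, with Benjamini-Hochberg adjustment. The pseudocount understates changes of low genes. Single genes were also tested by exact permutation of the group labels (924 arrangements). Tables were handled with pandas 2.3.3 and NumPy 2.4.6 in Python 3.11.15, exact tests ran in SciPy 1.17.1, and plots were drawn with Matplotlib 3.10.9. Of 225024 values 8 had a status other than OK and were kept. The comparison was tested on simulated data.

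Deviations from group means correlated across genes between same-numbered samples (r = 0.347 to 0.623), and each sample was closest to its own number, so that numbers were taken as pairs from the same experiment. The implied depth was 18800000 to 28000000 fragments per sample, estimated from transcripts of at least 800 nucleotides; of low values at least 99.2% were whole within 0.05. Fragment numbers cover counting error only. For the short Tnnc2 the value of 1 fragment was taken from transcripts of like length.

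The genes and lists were chosen with earlier results of these data known. All 10 genes are named, with list genes that passed, the most abundant of each list, those listed at 0, and the 3 genes of most similar pattern. Others, named as not passing, were added after their values were seen. Alternatives were pseudocounts of 1 and 0.01, no filter, a mean FPKM of at least 1, TPM scale, quantile normalization, no trend, the replicate block, transcripts summed or tested by themselves, and each sample left out.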

Additional observations from a re-analysis of the deposited data

Results flagged for a closer look

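In 92 sets of 6 values, of the genes above and of their partners, other actins, and transcription factors, 10 had a sample whose distance to the nearest other was a large part of the range of the set (above Dixon's critical value at 95%); chance gives about 1 in 20. Among the troponins these were Tnni1 in Ad-h-NR4A2 sample 28, at 0.822 FPKM against 1.77 to 2.24 in the others, and Tnnc2 in Ad-h-NR4A2 sample 26, at 0.782 against 0.121 to 0.288 (6 fragments against 1 to 2). Sample 28 was also the lowest for Tnni1 in Ad-GFP.

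Ad-GFP sample 24 stood apart in Xirp2 (123 FPKM, others 154 to 160.4), Nkx2-5 (83.0, others 52.3 to 61.9), and Acta2 (12.7, others 1.76 to 4.90). Acta2 was also high in Ad-h-NR4A2 sample 24 (10.99, others 1.82 to 5.06). The remaining samples were Ad-GFP 25 for Gata4 (32.2 FPKM, others 38.4 to 40.9), Ad-h-NR4A2 26 for Lmod2 (0.663, others 0.283 to 0.407), Ad-h-NR4A2 29 for Cfl1 (279, others 218 to 240.4), and Ad-h-NR4A2 25 for Six4 (1.03, others 1.48 to 1.67). Their causes were not tested.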

How the results depend on the processing

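Without a filter on low values, which admits 17301 genes, Tnnt2 (-0.26, limma adjusted p = 0.132) and Tnnc1 (-0.28, adjusted p = 0.0661) lost their calls, so that 0 of 8 troponin and actin genes fitted were called, and 2 at an unadjusted p below 0.05, where 4221 of all 17301 genes were called. In the other alternatives both kept direction and call, leaving out each sample included. With the replicate block, Tnni3 (-0.22, limma adjusted p = 0.00241) and Acta1 (-0.10, adjusted p = 0.0449) passed, 4 genes in all; pairing changed no other call among the 7 genes tested, and the summed transcripts of Tnnt1 were not fitted with it. A mean FPKM of at least 1 left no value for Tnnt1, and Tnnt3, Tnni2, and Tnnc2 had none in the main comparison.

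With each sample left out, log2 fold changes were -0.30 to -0.23 for Tnnt2, -0.31 to -0.25 for Tnnc1, -0.30 to -0.17 for Tnni3, -0.14 to -0.03 for Actc1, and -0.96 to -0.17 for Tnnt1. The range for Acta1 was -0.21 to 0.024, turning positive without Ad-h-NR4A2 sample 27. For Tnni1 it was -0.068 to 0.23, turning negative without Ad-GFP 28 (-0.068) or Ad-h-NR4A2 24 (-0.038), 27 (-0.018), or 29 (-0.011). With each sample left out, 2 to 3 of the 10 genes and 11 to 14 partners were called, 4028 to 4592 genes changed, and 1541 to 1769 also passed the ratio of 1.5. Quantile normalization moved Tnni3 to -0.077, and its adjusted p over all alternatives was 0.00241 to 0.481.

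Of 32 other list genes called, 4 (Capza2, Capzb, Myl2, and Col3a1) lost the call in 21 of 703 settings in all, and none turned direction. With a sample left out, Capzb lost it in 7 of 12 fits, Myl2 in 5, Col3a1 in 3, and Capza2 in 1. Quantile normalization, among the 21, could show no difference for Myl2. This gene ranked 2 in every sample, so that it received the same value in each. The Tnnt1 share of troponin T with Ad-GFP moved from 0.00659% to 0.0114% with transcripts summed, and with Ad-h-NR4A2 from 0.00519% to 0.00822%. Causes were not tested. Depth limits Tnnc2, at 0 to 6 fragments per sample.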

Other observations

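Of the skeletal muscle markers not tested in the main comparison, Myf6 and Myh8, named after their values were seen, were higher with Ad-h-NR4A2. Myf6, a transcription factor of skeletal muscle, was listed at 0 in all 6 Ad-GFP samples and had 0.125 to 0.391 FPKM with Ad-h-NR4A2, or 3 to 10 fragments per sample. Myh8, a myosin heavy chain of the perinatal stage, had 0 to 0.0199 FPKM with Ad-GFP (5 fragments over the group), against 0.0869 to 0.498 with Ad-h-NR4A2 (235 fragments). No p-value is given for them, since a test on the values by which they were chosen is no support. Of the other markers not tested, Myh1, Myh2, Myh4, Actn3, Mylpf, and Mybpc1 had overlapping groups. Myod1, Myog, and Myf5 were each listed at 0 in 11 of 12 samples.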
